A study of Mus musculus with 2 samples.

Results

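The genes described here are 10 immediate early transcription factor genes, the FOS family members Fos, Fosb, Fosl1 and Fosl2, the JUN family members Jun, Junb and Jund, and Egr1, Myc and Atf3. They were chosen by name, as the genes to which non-control probes of the microarray were assigned. They are 10 of 37074 gene names on the array, and all 10 were among the 20350 genes with a probe well above background on each of the arrays. RNA came from MCMs, which are commercially obtained mouse cardiomyocytes grown over several passages. One culture received the negative control siRNA (siRNA-NC) and the other the siRNA against Ppp2r5d (siRNA-Ppp2r5d), each with Lipofectamine RNAiMAX. At 48 h both cultures were moved to medium without glucose, and at 64 h the RNA was taken. The labels name no strain, genotype, age or ISO treatment, and the model rests on 1 siRNA against Ppp2r5d in 1 culture.

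FOS and JUN proteins pair through leucine zippers to form AP-1, a dimer that binds a short palindrome in promoters and enhancers, and ATF3 joins the same dimers. Growth factors, stretch and metabolic stress raise transcription of these genes through ERK, JNK and p38 kinases, which act on SRF with its ternary complex factors, on CREB and ATF factors at cyclic AMP response elements (CRE) and on JUN itself. EGR1 is a zinc finger factor induced by the same signals, and MYC drives ribosome production and cell growth. In heart muscle these genes are known as early markers of hypertrophic and ischaemic stress. PPP2R5D is a B56 regulatory subunit of the phosphatase PP2A, and PP2A holding a B56 subunit is known to dephosphorylate MYC and to act on the ERK cascade. The comparison of the arrays therefore addresses whether the transcripts of these factors differed after knockdown of Ppp2r5d. Protein and phosphorylation were not measured here.

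The regulatory DNA of the members with the lowest values is shown because Fosb, Jun and Fos stood below the other members on the siRNA-Ppp2r5d array. The sequences are the 250 bases before the start site in RefSeq on build GRCm38.p6, for which 7 of the 10 genes were matched. Egr1, Fosl1 and Myc were not matched. Capitals mark the CRE half-site (TGACG), the JUN-type AP-1 site (TGACATCA), the TATA box (TATAAA) and the MEF2 site, each searched on both strands. All run 5′ to 3′ on the strand of the gene.
Fos, chr12:85473640-85473889, plus strand: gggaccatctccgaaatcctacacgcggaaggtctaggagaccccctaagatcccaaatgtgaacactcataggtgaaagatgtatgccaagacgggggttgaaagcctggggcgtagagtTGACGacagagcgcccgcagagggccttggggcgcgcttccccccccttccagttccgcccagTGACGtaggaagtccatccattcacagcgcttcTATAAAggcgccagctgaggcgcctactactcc
Fosb, chr7:19310046-19310295, minus strand: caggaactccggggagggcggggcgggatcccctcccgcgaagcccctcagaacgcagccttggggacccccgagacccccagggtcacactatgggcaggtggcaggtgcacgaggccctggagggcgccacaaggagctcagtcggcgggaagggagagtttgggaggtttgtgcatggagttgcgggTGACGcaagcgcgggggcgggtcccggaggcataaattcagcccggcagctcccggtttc
Jun, chr4:95052223-95052472, minus strand: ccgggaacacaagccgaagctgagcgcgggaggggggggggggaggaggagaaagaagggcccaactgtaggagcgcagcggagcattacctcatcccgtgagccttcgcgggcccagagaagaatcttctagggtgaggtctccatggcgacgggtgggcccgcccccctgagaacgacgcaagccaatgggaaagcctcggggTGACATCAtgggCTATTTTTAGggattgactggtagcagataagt
Counting back from the start site, the Fos window held CRE half-sites at -129 to -125 and at -66 to -62 and a TATA box at -33 to -28. The Fosb window held 1 CRE half-site at -60 to -56. The Jun window held no CRE half-site but a JUN-type site at -45 to -38 and a MEF2 site at -33 to -24. Of the other matched members, Junb held a CRE half-site at -106 to -102, and Atf3 held a CRE half-site at -7 to -3 and a MEF2 site at -22 to -13. The windows of Fosl2 and Jund held none of these motifs. A CRE half-site was found in 17.8% of 32851 promoter windows of the same length, a TATA box in 12.4%, a JUN-type site in 2.93% and a MEF2 site in 0.508%. The GC box (GGGCGG, not marked) was in 32.7% of all windows and in those of Fos, Fosb, Fosl2, Jun and Atf3. A CArG box, the SRF site, was in 1.47% of windows and the AP-1 site TGANTCA in 6.75%. The EGR1 site GCGTGGGCG, which can overlap a GC box, was in 0.536%. No match to these 3 was found in the windows of the 7 members. DNA further upstream was not searched, so sites beyond the 250 bases, CArG boxes included, would be missed. These motifs were picked after the windows had been read. CRE half-sites stood both in windows of members with lower values (Fos, Fosb) and in windows of members with values close to 0 (Junb, Atf3).

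The values rest on 60-base probes, 16 in all, and 4 genes had 2 probes with signals well above background on each array. The probe nearer the 5′ end is shown for 3 of these, because the pair of probes gives the check on reading position that the single-probe genes lack. At least 1 reading frame of each runs through without a stop codon. Coordinates are those of the scanner files, build mm9.
Fosl2, chr5:32455088-32455147, starting at base 738 of the transcript: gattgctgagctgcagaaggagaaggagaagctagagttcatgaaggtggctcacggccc
Junb, chr8:87501881-87501940, starting at base 707 of the transcript: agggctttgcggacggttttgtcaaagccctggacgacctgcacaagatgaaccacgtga
Myc, chr15:61820925-61820984, starting at base 1407 of the transcript: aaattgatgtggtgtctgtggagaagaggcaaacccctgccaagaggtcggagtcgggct
The single informative probe of Fosb lies at chr7:19888168-19888227, that of Jun at chr4:94716928-94716987 and that of Fos at chr12:86818118-86818177. Which exon or untranslated region holds each probe was not analysed here.

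The targeted gene was read first. Ppp2r5d was at an intensity of 4701 with siRNA-NC and at 676 with siRNA-Ppp2r5d, which after scaling was a log2 fold change of -2.61, or 6.09-fold lower. Intensities are background-corrected and in arbitrary units, and log2 fold changes are siRNA-Ppp2r5d over siRNA-NC after subtraction of each array's 75th percentile. For siRNA-NC the percentile stood at 593 and for siRNA-Ppp2r5d at 519. With 1 array per condition, differences could not be checked against replicates, and p-values are not given. The errors given (±) are those the scanner software assigns to each spot, and they do not cover the spread between cultures. For bright probes they were a nearly constant share of the intensity, as in 950 of 9498 for Fos and 1631 of 16310 for Jun with siRNA-NC. The ± 0.20 is therefore close to a fixed mark and not a measured spread. Of the cardiomyocyte markers, Actn2, Myl2, Myl7 and Pln were not well above background on either array and 11 of 18 were so on both, 8 with values above 0 and 3 below, with a median log2 fold change of 0.23. Of these 4 were past 1.5-fold higher, Myl3 at 0.90, Ttn at 0.89, Nppb at 0.68 and Nppa at 0.62. Nppa (16.6 and 22.4) and Nppb (17.1 and 23.9) were close to the lowest intensities called well above background. Myl3 (40.4 and 66.2) was also dim. Actc1, at 6443 and 5268, had -0.098. Of the fibroblast markers 7 of 10 were well above background on both arrays, 3 above 0 and 4 below, with a median of -0.050. Lum was at 1.08, with intensities of 156 and 288, Pdgfra at 0.62 and Postn at 0.12. Those below 0 were Col1a2 at -0.31, with intensities of 147519 and 134481, Dcn at -0.14, Col1a1 at -0.13 and Col3a1 at -0.050. Of the smooth muscle markers 6 of 6 were, with 2 above 0, Cnn1 at 2.41 and Tagln at 0.85, 4 below 0, Des at -0.42, Myh11 at -0.38, Smtn at -0.11 and Acta2 at -0.020, and a median of -0.066. Of the macrophage markers 5 of 6 were, 2 above 0 and 3 below, with a median of -0.065. Cd68 was at -0.77, Lyz2 at -0.68, Csf1r at -0.065, Itgam at 0.035 and Ptprc at 0.13. Of the epithelial markers 2 of 6 were well above background on both arrays, with Krt8 at 2.16 and Krt14 at -0.53. Of the endothelial markers 1 of 6 was, Pecam1 at -0.23. The part of this makeup in the values below was not tested. In RNA of a whole culture, fewer cells of a type and less RNA per cell cannot be told apart.

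Of the 10 genes, 0 were at least 2-fold higher, against 0.885% of the 20350 genes measured on both arrays, and 0 were at least 2-fold lower, against 1.07%. At 1.5-fold, 0 were higher, against 3.36% of all genes, and 1, Fosb, was lower, against 4.65%. The log2 fold change was above 0 in 4 and below 0 in 6, with a median of -0.078, where the median of all genes was 0.026. All 14 member probes that were well above background had a lower unscaled intensity on the siRNA-Ppp2r5d array, as did the 75th percentile of the array itself. The plot of intensities shows the pairs of values.

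**Figure D1:**
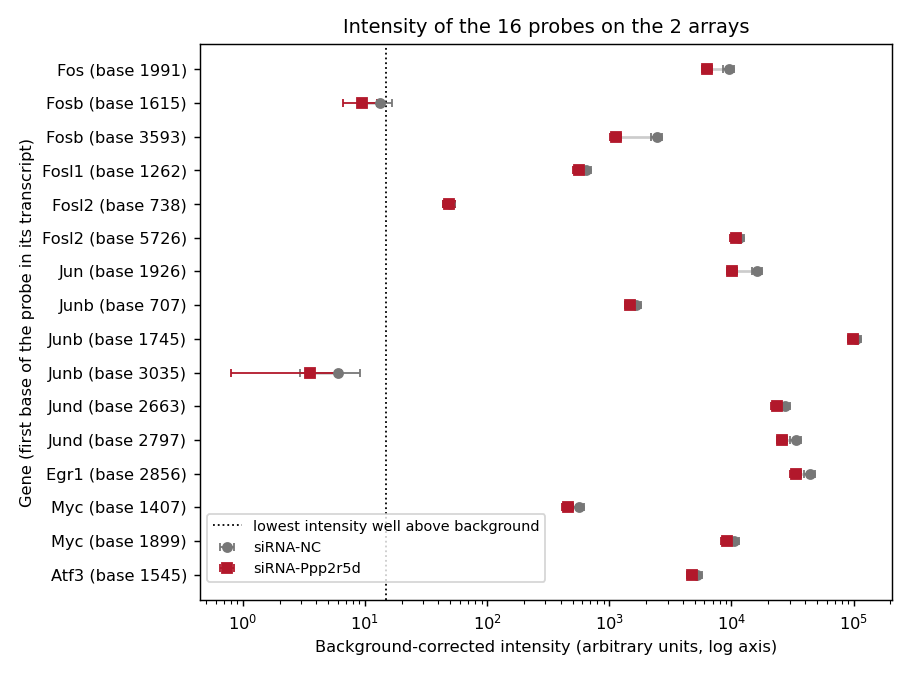
Background-corrected intensity (arbitrary units, log axis) of each of the 16 probes on the siRNA-NC array (grey circles) and the siRNA-Ppp2r5d array (red squares), with the scanner error as bars and the lowest intensity called well above background as a dotted line. The widest gaps among probes above the line are those of Fosb (2447 and 1124), Jun (16310 and 10185) and Fos (9498 and 6326), and 1 probe each of Fosb and Junb lies below the line on both arrays.

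Fosb, a FOS family member with a strong activation domain, had the lowest value of the 10. Its probe at base 3593 of the transcript had an intensity of 2447 with siRNA-NC and 1124 with siRNA-Ppp2r5d. The second was less than the first by more than the scanner error, with a log2 fold change of -0.93 ± 0.20, or 1.90-fold lower. Of all genes measured on both arrays, 1.38% were at or below this value. The other probe of Fosb, at base 1615, had intensities of 13.4 and 9.53 and was not well above background on either array, so the value of Fosb rests on 1 probe.

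Fos itself, the founding member of the family and a standard marker of recent stimulation, had an intensity of 9498 with siRNA-NC and 6326 with siRNA-Ppp2r5d. It was lower on the siRNA-Ppp2r5d array, with a log2 fold change of -0.39 ± 0.20, or 1.31-fold, and 9.53% of all genes were at or below it. The FOS-related antigens, which lack a strong activation domain and persist longer after a stimulus, had values near 0. Fosl1 had intensities of 640 and 565, a log2 fold change of 0.012 ± 0.20. Fosl2 was read by a probe at base 5726, with intensities of 11507 and 10799 and a log2 fold change of 0.10, and by the probe at base 738 shown above, with intensities of 49.3 and 49.2 and a log2 fold change of 0.19. Both Fosl2 probes stood on the same side of 0, and their mean of 0.15 (SD between probes 0.064, 2 probes) was the highest of the 10 genes. Within the FOS family, then, Fos and Fosb were below 0 and Fosl1 and Fosl2 were not, and the median of the 4 was -0.19.

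Jun, the AP-1 subunit that JNK phosphorylates and that drives its own promoter through the JUN-type site marked above, had an intensity of 16310 with siRNA-NC and 10185 with siRNA-Ppp2r5d. It was lower on the siRNA-Ppp2r5d array by more than the scanner error, with a log2 fold change of -0.49 ± 0.20, or 1.40-fold, and 6.70% of all genes were at or below it. Its value rests on 1 probe. Junb, a weaker activator that can oppose JUN, had intensities of 104341 and 99450 at base 1745, a log2 fold change of 0.12. At base 707, the probe shown above, Junb had intensities of 1639 and 1488 and a log2 fold change of 0.052. The mean of both was 0.088 (SD between probes 0.050, 2 probes), and the remaining Junb probe was not well above background on either array. Jund, the constitutively expressed member of the family, had intensities of 33538 and 26011 at base 2797 and of 27640 and 23582 at base 2663. Its probes gave log2 fold changes of -0.17 and -0.037, and their mean of -0.11 (SD between probes 0.097, 2 probes) was smaller in size than the scanner error of 0.20. Jund was beyond that error with quantile normalization (-0.23), cyclic loess (-0.24) and scaling to spike-in probes (-0.29). In the last of these the median of all genes was itself -0.16. The median of the 3 JUN family genes was -0.11, with Jun apart from the others.

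Egr1, which also serves as a marker of ERK activity, had an intensity of 43865 with siRNA-NC and 33507 with siRNA-Ppp2r5d. Its log2 fold change of -0.20 ± 0.20 was no larger than the scanner error, and 21.1% of all genes were at or below it. Myc, whose protein is a substrate of PP2A with a B56 subunit, had intensities of 10429 and 9119 at base 1899 and of 562 and 459 at base 1407. The log2 fold changes were -0.0012 and -0.099, so that neither probe differed by more than its scanner error, and their mean was -0.050 (SD between probes 0.069, 2 probes). Atf3, a stress-induced partner of JUN proteins, had intensities of 5216 and 4778, a log2 fold change of 0.066 ± 0.20. With the 75th percentile, Egr1, Myc and Atf3 thus differed by no more than the scanner error. Egr1 went beyond it with quantile normalization (-0.34), cyclic loess (-0.34), normexp (-0.22) and scaling to spike-in probes (-0.38), and Myc with scaling to spike-in probes (-0.23). How far cultures of the same condition differ was not measured here.

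**Figure D2:**
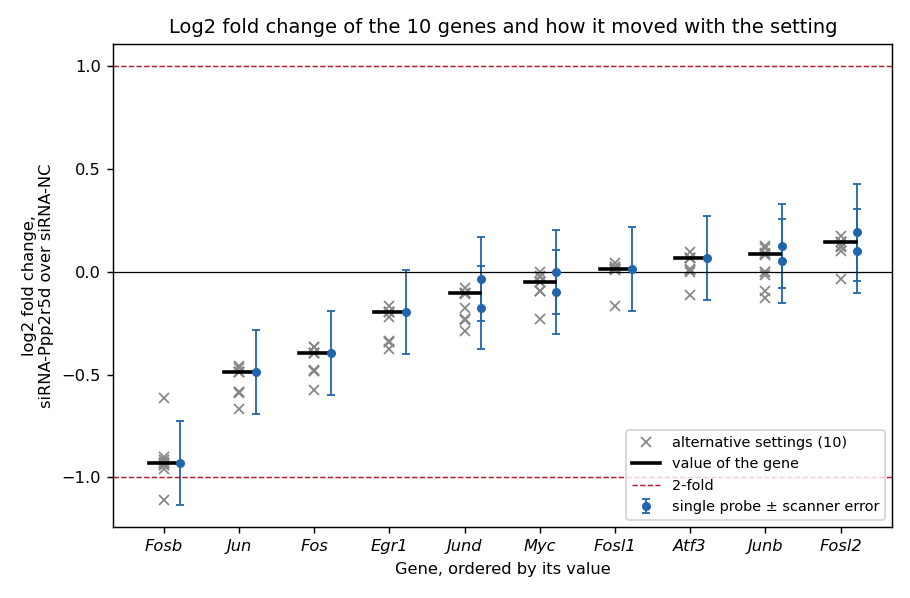
Log2 fold change (siRNA-Ppp2r5d over siRNA-NC) of each of the 10 genes, ordered by value, with the value of the gene as a black bar, single probes with their scanner error in blue, 10 alternative settings as grey crosses and 2-fold as dashed lines. Fosb (-0.93), Jun (-0.49) and Fos (-0.39) lie below the other 7 genes, which lie between -0.20 and 0.15. Scaling to spike-in probes, 1 of the alternatives, takes Fosb past 2-fold, and under it the median of all genes is -0.16.

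How the members varied among themselves can be set beside the spread that the arrays themselves show. Among 7167 genes with several probes, the log2 fold change differed between probes of the same gene with a median SD of 0.12 and a 95th percentile of 0.45. That percentile is of an SD within genes, pools dim and bright probes and does not measure the spread between cultures. Fosb and Jun were larger in size than it, and Fos was smaller. With quantile normalization (-0.48) and cyclic loess (-0.48) Fos was larger too. Each of these 3 genes was read by 1 informative probe. Spots of the same probe differed less, with a median SD of 0.036 over 283 probes. Over the main setting and 10 alternatives, 11 in all, Fosb ran from -1.11 to -0.61, Jun from -0.67 to -0.46 and Fos from -0.58 to -0.37. Egr1, Jund and Myc were also below 0 in all 11, with Egr1 between -0.38 and -0.17, Jund between -0.29 and -0.078 and Myc between -0.23 and -0.0012. Of the alternatives, the deposited log2 table was nearly the same as quantile normalization, with a largest difference of 0.0013 over the 10 genes, so these are not separate checks. Some other alternatives could not change a value. Admitting probes well above background on at least 1 array left all 10 genes unchanged. Fos and Jun, with 1 probe each, could not move with no filter on dim probes or with the brightest probe. With outlier spots kept they stayed at -0.39 and -0.49. Junb was below 0 in 5 of 11, Atf3 in 2, and Fosl1 and Fosl2 in 1 each, the scaling to spike-in probes. Under that scaling the all-gene median was -0.16 in place of 0.026, and relative to the median of all genes Fosl2 stayed between 0.063 and 0.12 in the 11 settings.

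The other genes of these pathways were taken from lists of partners, upstream kinases and targets, and are given by the number past 1.5-fold or 2-fold, beside the percentages of all genes above. AP-1 partners, which include BATF, MAF and CREB factors, were measured on both arrays for 13 of 14 genes, of which 5 had values above 0 and 8 below. Of these, 0 were past 1.5-fold, and the median was -0.023. Maff, a small MAF factor, had intensities of 2762 and 3072 and a log2 fold change of 0.35. Jdp2, a repressor that pairs with JUN, had intensities of 16918 and 12028 and a log2 fold change of -0.30. Batf3 and Batf, which pair with JUN proteins in immune cells, were dim, at 35.4 and 34.1 and at 37.9 and 36.5, and each had a log2 fold change of 0.14. Batf2 was well above background with siRNA-NC only, which gave a bound of -0.76, past 1.5-fold lower. The 13 partner genes measured on both arrays were thus within 1.5-fold.

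Of the EGR family and its NAB corepressors, 3 of 5 genes were measured on both arrays and 0 were past 1.5-fold. Egr3 had a log2 fold change of 0.17 from 2 probes, Egr2 of 0.059 and Nab2, which binds EGR proteins and represses them, of -0.047. Egr4 was not well above background, and Nab1 was not matched on the array. In the MYC network of MAX partners, 13 of 14 genes were measured, 6 with values above 0 and 7 below, with a median of -0.0050. Mxd3, a MAX partner that represses MYC targets, was the 1 gene past 2-fold, with intensities of 108 and 24.6 for its brighter probe and a log2 fold change of -1.94 from both probes. Over the 11 settings Mxd3 ran from -2.12 to -0.70, the latter with normexp background correction, and both probes were dim. Mxd1, a repressor of the same family, had intensities of 845 and 524 and a log2 fold change of -0.50, which was 0.70 with no filter on dim probes, where another probe enters, and below 0 in the other 10 settings. Mycl, a MYC paralog, was close to background at 23.1 and 14.7, and Mlx, which pairs with MLXIP proteins in glucose sensing, had a log2 fold change of -0.28. Mycn was not well above background.

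Enzymes and binding proteins that set the stability of MYC protein were measured for 11 of 11 genes, 5 with values above 0 and 6 below, 0 past 1.5-fold, with a median of -0.051. Aurka, a mitotic kinase that also stabilises MYC proteins, had intensities of 4562 and 2704 and a log2 fold change of -0.56. Cip2a, an inhibitor of PP2A that is named C330027C09Rik on the array, had intensities of 1186 and 794 and a log2 fold change of -0.39. Set, another inhibitor of PP2A, had a log2 fold change of 0.27 from 2 probes. The inhibitors of PP2A in the list thus stood on opposite sides of 0.

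Upstream, the ERK cascade was measured for 25 of 26 genes, 15 above 0 and 10 below, with a median of 0.0084. The receptor Egfr was the 1 gene past 1.5-fold, with intensities of 1576 and 2240 for its brightest probe and a log2 fold change of 0.68 over 4 probes that ranged from 0.42 to 0.85. Egfr was within 1.5-fold with normexp and with scaling to spike-in probes, at 0.50 in the latter. Under that scaling the median of all genes was also lower, at -0.16. The ERK kinase Mapk3 had a log2 fold change of -0.050. Of the RSK kinases that ERK activates, Rps6ka1 had a log2 fold change of -0.32 and Rps6ka3 of 0.31, and the scaffold Ksr1, at 32.0 and 25.9 for its brighter probe, had -0.30. Apart from Egfr, the transcripts of the cascade measured on both arrays were thus within 1.5-fold.

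In the JNK and p38 cascade, 15 of 15 genes were measured, 5 above 0 and 10 below, with a median of -0.10. The median stayed below 0 in all 11 settings, from -0.28 with scaling to spike-in probes to -0.017 with normexp. In the former the median of all genes was itself -0.16. Mapk10, the JNK isoform known from brain and heart, had intensities of 66.9 and 149 and a log2 fold change of 1.35, the 1 value past 2-fold, and ran from 0.46 to 1.39 over the settings. Mapk13, a p38 isoform, had intensities of 34.7 and 15.3, near the background, and a log2 fold change of -0.99, which was -0.015 with normexp background correction. Map2k6, which activates p38, had intensities of 216 and 134 and a log2 fold change of -0.50, and the p38 isoform Mapk11 had 415 and 293 and a log2 fold change of -0.31. The main kinases Mapk8, Mapk9 and Mapk14 had log2 fold changes of 0.034, -0.081 and -0.13 and were named for their role. The genes with the widest differences in this cascade were thus its dimmer isoforms.

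SRF and the ternary complex factors, which control Fos and Egr1 through CArG boxes, were measured for 7 of 8 genes, with 0 past 1.5-fold and a median of 0.023. Srf had intensities of 3563 and 2661 and a log2 fold change of -0.23. Elk1, a ternary complex factor that ERK phosphorylates, had a log2 fold change of 0.33 from probes at 0.13 and 0.52, Fhl2, a cofactor of SRF, had 0.18, and Mrtfb, an actin-regulated cofactor named Mkl2 on the array, had -0.17. Myocd was not well above background.

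Other immediate early genes were measured for 37 of 37, 17 above 0 and 20 below, with a median of -0.026. Of these, 0 were past 1.5-fold higher and 2, Arc and Ier2, were past 1.5-fold lower. Arc, a direct target of SRF, had intensities of 3187 and 1774 and a log2 fold change of -0.65. Ier2 had a log2 fold change of -0.62 as the mean of 2 probes that disagreed, at -1.07 and -0.17, of which the brighter gave -0.17 with intensities of 37259 and 28926. Ccn2, a matricellular growth factor named Ctgf on the array, had intensities of 7165 and 4630 and a log2 fold change of -0.44. Klf10, a zinc finger repressor induced by TGF-beta, had a log2 fold change of 0.44 from 2 probes. The lowest gene values of this list, -0.65 and -0.62, were closer to 0 than the -0.93 of Fosb, although 1 Ier2 probe was below it and Fosb itself was at -0.61 with no filter on dim probes.

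**Figure D3:**
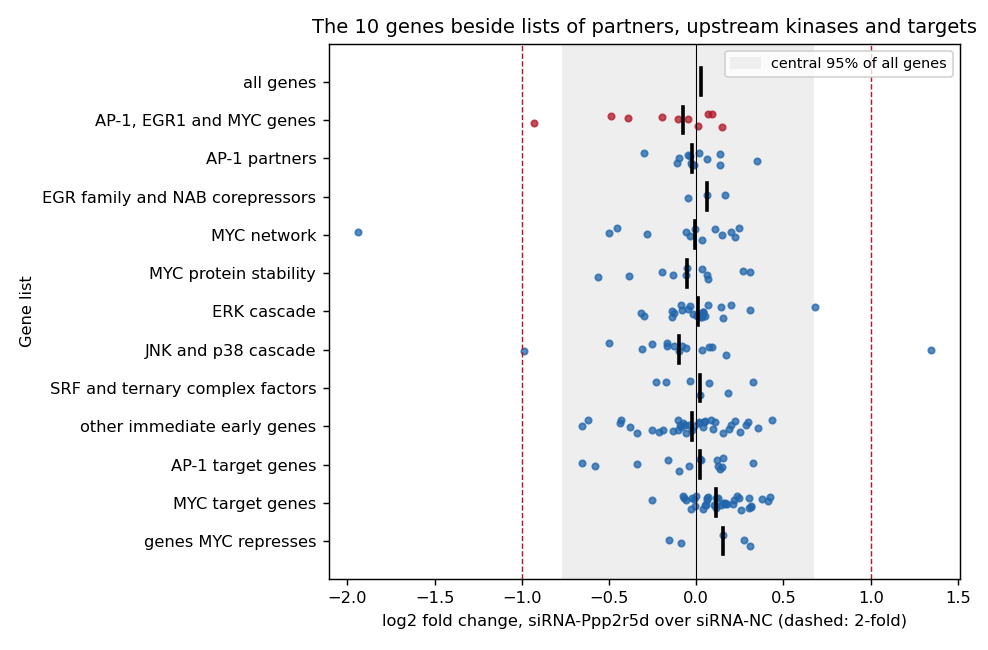
Log2 fold change (siRNA-Ppp2r5d over siRNA-NC) of the 10 genes (red) and of the genes of each list (blue), 1 point per gene measured on both arrays, with medians as black bars, the central 95% of all genes, -0.76 to 0.67, in grey and 2-fold as dashed lines. Medians lie between -0.10 (JNK and p38 cascade) and 0.15 (genes MYC represses), and points outside the grey band are Fosb, Mxd3, Egfr, Mapk10 and Mapk13.

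Downstream, AP-1 target genes were measured for 14 of 18, 8 above 0 and 6 below, with a median of 0.024. Of these, 0 were past 2-fold, 0 were past 1.5-fold higher and 1, a gene not reported here, was past 1.5-fold lower. Plaur, the urokinase receptor, had intensities of 6521 and 3818 and a log2 fold change of -0.58. The chemokine Ccl2 had intensities of 9335 and 6449 and a log2 fold change of -0.34, and the cytokine Il6 had 0.33 from 2 probes. Mmp3, Mmp9, Mmp10 and Mmp13 were not well above background. Plaur was thus lower with siRNA-Ppp2r5d, while Plau, the urokinase itself and named for its role, had a log2 fold change of 0.15.

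MYC target genes were measured for 37 of 37, and 28 had values above 0 and 9 below, where 11013 of all 20350 genes were above 0. The median was 0.11, 0 were past 1.5-fold, and the median ran from -0.068 with scaling to spike-in probes, the 1 setting below 0, to 0.14. Under that scaling the median of all genes was -0.16. Cad, a pyrimidine synthesis enzyme, had a log2 fold change of 0.42 as the mean of 2 probes that disagreed, at 0.82 and 0.027. The nucleolar protein Nolc1 had intensities of 7351 and 8549 and a log2 fold change of 0.41, the transferrin receptor Tfrc had 0.38 from 2 probes, and Hk2, a hexokinase of glycolysis, had intensities of 4174 and 4544 and a log2 fold change of 0.31. Genes that MYC represses were measured for 5 of 6, with 3 above 0, 2 below and a median of 0.15. The cell cycle inhibitor Cdkn1a had a log2 fold change of 0.31 as the mean of 3 probes that ranged from -0.19 to 0.91. Ndrg1 had intensities of 64706 and 68585 and a log2 fold change of 0.28, Ndrg2 had -0.16 and Gadd45a, a DNA damage response gene, had 0.15. Activated and repressed targets of MYC thus both had medians above that of all genes, and each of these values was within 1.5-fold.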

How the data were processed

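Per the labels, RNA of each culture was labelled with Cyanine 3 and read on 1 one-colour Agilent SurePrint G3 Mouse v2 array. The authors deposited spot intensity values from Agilent Feature Extraction 10.7.1.1, from which the background had been subtracted but which had not been scaled between arrays. A deposited table of log2 values had been normalized between the arrays, by a method not given in the sources used here. Here control spots and outlier spots (126 for siRNA-NC, 95 for siRNA-Ppp2r5d) were left out, spots of a probe were averaged on the log2 scale, each array's 75th percentile (non-control probes) was taken off and the probes of a gene well above background on both arrays were averaged. Spots were called well above background down to an intensity of 14.9 (siRNA-NC) and 13.5 (siRNA-Ppp2r5d). Dim probes and unequal RNA input can therefore move values. Only spots, and not cultures, were repeated, and the number of arrays limits the precision. A gene was counted at 1.5-fold and at 2-fold, and no test was run.

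All 10 genes are reported in every probe, with Ppp2r5d and, of each list, up to 4 genes with the largest absolute log2 fold change and every gene past 2-fold. Some genes that meet it are not reported here. Genes said to be named for their role, and Mapk3 and the marker genes, fall outside this rule and were picked with their values in view. The members and lists were chosen with earlier results of these data known, and the lists come from general knowledge. Promoter and probe sequences were read from RefSeq and from the scanner files. The steps were tested on simulated data. Normalization ran in R 4.3.3 (limma 3.58.1), and the rest in Python 3.11.15 (matplotlib 3.10.9, NumPy 2.4.6 and pandas 2.3.3). The alternatives were quantile, cyclic loess, median and spike-in scaling, normexp with an offset of 50, the deposited log2 table, outlier spots kept, 2 other filters on dim probes, the probe of highest mean signal and thresholds of 1.5-fold and 4-fold.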

Additional observations from a re-analysis of the deposited data

How the results depend on the processing

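No paired analysis was possible because each condition has a single array. The median log2 fold change of the 10 genes, -0.078, was -0.16 with quantile normalization, -0.16 with cyclic loess, -0.16 with the deposited log2 table (nearly the same as quantile normalization), -0.26 with scaling to spike-in probes, where the median of all genes also fell to -0.16, and -0.12 with no filter on dim probes. The count of members at least 2-fold lower, 0, became 1 (Fosb, at -1.11) with scaling to spike-in probes and was 1 at a threshold of 1.5-fold. Ppp2r5d was at -2.79 with scaling to spike-in probes and -2.49 with normexp. The cause of these shifts was not tested. Only values past 2-fold were checked for a change of sign. Among the 10 genes, the list medians and Ppp2r5d, that was Ppp2r5d alone, which stayed below 0. Within 2-fold, Junb, Atf3, Fosl1 and Fosl2 stood on both sides of 0 over the settings. So did every list median except that of the JNK and p38 cascade. For the 10 genes and the lists, each under 10 alternatives, 82 comparisons with the main value differed by more than 0.036, the median SD between spots of a probe, and 128 did not. The 128 include comparisons whose outcome was fixed, such as other probe filters on genes with 1 probe. Signal over background limits Batf, Batf3, Mycl, Mxd3, Ksr1, Mapk13, the markers Nppa, Nppb, Myl3 and Myh11 and the dimmer Fosl2 probe. The missing replicates limit all values.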

Other observations

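Junos, the transcript from the strand opposite Jun, has 3 probes on the array, of which 1 was well above background on both arrays. That probe had an intensity of 55.0 with siRNA-NC and 58.7 with siRNA-Ppp2r5d, a log2 fold change of 0.29, where Jun had -0.49. The gene was named after its values were seen, and its signal was dim.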
